A study of Mus musculus with 12 samples.

Results

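The transcripts described here carry the GENCODE M21 transcript type nonsense_mediated_decay, the annotation's term for a spliced RNA whose reading frame ends well before its last exon junction. Of 140137 quantified transcripts tied to that annotation, 7181 had this type, 5329 of them had at least some reads, and the 300 with the highest mean read number over all 12 libraries were taken as members. They came from 276 genes, 21 of which gave 2 or more members. The choice used the mean level over both groups and not the contrast, and it left members from 39491 mean reads (Pnpla2-201) down to 180.1. The last members were Hnrnpa2b1-209 with 180.151 and Zmym5-205 with 180.146 reads, and the first transcripts left out were Pnldc1-205 with 179.739 and Cops5-204 with 176.932.

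Nonsense-mediated decay removes RNAs on which a ribosome stops upstream of an exon junction complex, the protein mark left where exons were joined. The helicase UPF1 is recruited to the terminating ribosome, bridged to the junction complex by UPF2 and UPF3, and phosphorylated by SMG1, after which SMG5 and SMG6 bring about cleavage and decay. Splicing can make such RNAs by skipping an exon, including a cassette with a stop codon, extending an exon or keeping an intron, and genes for splicing and ribosomal proteins use this route to hold down their own output. An annotated transcript of this type is therefore a predicted target, and its decay was not measured here.

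Interscapular brown adipose tissue, the heat-producing fat depot between the shoulder blades, came from 12 male wild type C57BL/6N mice aged 20 weeks, 6 labelled ctrl and 6 labelled cold, with 1 polyA RNA library per mouse. The treatment text, single housing at 4 °C for 24 h, stands with every sample and is read as meant for the cold mice, and the colony was held at 22 °C to 24 °C. How the ctrl mice were housed in the last day is not stated, so single housing and cold cannot be told apart. The series text gives another group size and the extraction text names eWAT, and the sample labels were followed. Libraries held 16.0 M to 31.4 M estimated reads. Brown fat markers were high in all of them, with Ucp1, the uncoupling protein of heat production, at 8629 ± 1588 CPM (read counts scaled to a common library size) in ctrl and 10071 CPM in cold. Very short effective lengths, under 50 nt, took 55.2% of all TPM (length-scaled transcript abundance) in ctrl 2 and 2.36% to 8.42% in the other libraries. Summed skeletal muscle markers (15 of 15 genes found) ranged from 205 to 2002 CPM in ctrl and 248 to 6406 CPM in cold. The white adipocyte list (7 of 8 found, Hoxc10 at 0 in all libraries) ran from 99.4 to 265 CPM in ctrl and 430 to 629 CPM in cold, nearly all of the latter from Npr3 at 464 CPM, and the fibroblast list (8 of 8 found) ran from 271 to 458 against 206 to 313 CPM. In bulk tissue fewer cells of a type and less RNA per cell cannot be told apart. The part of these marker shifts in the results below was not tested. Only the muscle level was tried as a covariate, which left the counts of called members at 16 higher and 10 lower. Equal counts do not show that the same members were called. Of the 15 muscle genes 0 were called in either direction, and the white adipocyte and fibroblast levels were not tried as covariates.

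The sequences around the early stops show how these RNAs part from their coding relatives. Each pair below starts with the last 24 coding bases that the member shares with its partner, the protein-coding transcript of the same gene with the most reads. The member is then followed to its stop codon, which is in capitals, and the partner is continued in its own frame. Counts of bases include the stop codon. They are GENCODE M21 transcripts on GRCm38, written 5′ to 3′ as RNA sense with T for U, and were chosen because the results below turn on them. In Cars2-205 the printed bases span chr8:11530548-11537295 on the minus strand, and exon 7 of 15 begins upstream of its usual splice site, so that 71 added bases run into a TAG.
Cars2-205: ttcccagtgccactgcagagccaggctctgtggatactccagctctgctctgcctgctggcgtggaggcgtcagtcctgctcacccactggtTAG
Cars2-201: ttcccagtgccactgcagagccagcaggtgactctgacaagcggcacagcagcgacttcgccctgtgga
Zfp652-203 (chr11:95754032-95828715, plus strand) ends in an exon beyond the partner's last one, 50 bases after they part.
Zfp652-203: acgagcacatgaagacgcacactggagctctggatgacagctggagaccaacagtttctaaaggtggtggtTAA
Zfp652-202: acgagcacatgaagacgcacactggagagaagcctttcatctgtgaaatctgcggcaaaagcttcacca
Tesk1-204 (chr4:43444696-43445367, plus strand) lacks 83 coding bases of a skipped exon, and the shifted frame meets a TGA after 84 bases.
Tesk1-204: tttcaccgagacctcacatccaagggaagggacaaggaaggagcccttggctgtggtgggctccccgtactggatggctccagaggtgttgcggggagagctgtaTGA
Tesk1-201: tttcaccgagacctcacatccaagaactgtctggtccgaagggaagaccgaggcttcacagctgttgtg
Rps19-205 (chr7:24885529-24886153, plus strand) takes up an added exon of 81 bases and stops within it.
Rps19-205: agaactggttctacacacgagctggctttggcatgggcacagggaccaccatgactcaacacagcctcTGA
Rps19-202: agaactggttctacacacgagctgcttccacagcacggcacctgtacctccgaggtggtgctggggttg
Sod2-202 (chr17:13013589-13034905, plus strand) replaces the end of the coding sequence with exons far downstream and stops 26 bases on.
Sod2-202: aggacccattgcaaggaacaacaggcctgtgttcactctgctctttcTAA
Sod2-201: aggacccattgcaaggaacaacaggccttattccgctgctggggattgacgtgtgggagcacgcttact
Ppargc1a-201 (chr5:51490109-51490223, minus strand) has an exon 7 of 105 bases that starts further upstream and stops 13 bases on.
Ppargc1a-201: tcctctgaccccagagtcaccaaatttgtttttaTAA
Ppargc1a-203: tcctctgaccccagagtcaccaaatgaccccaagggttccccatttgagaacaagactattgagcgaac
Pnpla2-201 (chr7:141455450-141456593, plus strand) has an added exon 2 of 82 bases with a TGA.
Pnpla2-201: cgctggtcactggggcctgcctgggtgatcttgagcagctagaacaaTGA
Pnpla2-202: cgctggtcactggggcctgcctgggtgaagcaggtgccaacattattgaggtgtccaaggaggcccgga
Ddx5-208 (chr11:106783954-106783982, minus strand) reads from exon into a kept intron and stops at once.
Ddx5-208: ccgatgtggcctccagagggctaggtTAG
Ddx5-201: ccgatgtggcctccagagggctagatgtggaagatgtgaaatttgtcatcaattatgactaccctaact
Tra2a-202 (chr6:49252965-49263861, minus strand) includes a cassette exon of 306 bases with a stop, a so-called poison exon.
Tra2a-202: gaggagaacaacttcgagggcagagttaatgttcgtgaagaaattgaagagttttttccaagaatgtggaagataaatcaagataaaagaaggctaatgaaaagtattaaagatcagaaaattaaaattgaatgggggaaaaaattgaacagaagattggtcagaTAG
Tra2a-201: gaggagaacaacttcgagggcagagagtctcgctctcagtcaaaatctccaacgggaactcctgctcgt
Nabp1-209 (chr1:51471245-51471274, minus strand) and Chpt1-207 (chr10:88475405-88475434, minus strand) use the same stop codon as their partners but splice the 3′ UTR behind it, so only the last 30 coding bases are shown.
Nabp1-209: agagatccgaggagagcctttaaaagaTGA
Chpt1-207: ccggaacaggtttacaagcatattgacTGA

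Over all 300 members the stop codon was TGA in 161, TAG in 71 and TAA in 68. A skipped exon preceded the stop in 66 members and a shortened exon in 50, the stop lay in an added exon in 47 and in an extended exon in 39, and 26 shared the partner's stop with an intron behind it. The stop lay 53 to 7549 nt before the last exon junction (median 608), which the annotation requires to be over 50. Members were 343 to 12746 nt long with 2 to 47 exons (medians 2198.5 nt and 11). The annotation gave the best transcript support level, 1, to 139 members and the weakest, 5, to 75.

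How far a member can be told from its gene's other transcripts with 50 nt reads differed widely. In 179 members no base of the sequence was their own, and 51 of these had no exon junction of their own either, whereas 61 members had at least 100 own bases. Own sequence was counted against transcripts of the same gene only, and overlap with other genes was not examined. The 5 members whose gene had no protein-coding partner had a median of 4464 own bases by this count. Pnpla2-201 and Ppargc1a-201 are among the 51, so no base or junction was theirs alone within the gene. Their read numbers depend on how Salmon's model divided reads shared with other transcripts of the gene. The SD between animals of a group, on log2(CPM + 1), had a median of 0.28 for members with at least 100 own bases, 0.34 for 1 to 99 own bases, 0.37 for an own junction only and 0.33 for neither. All 10184 transcripts within the members' range of mean reads had a median of 0.23. At least 1 animal was at 0 reads in 29 members. Abcd3-205, at 0 in 7 of 12 animals, is the member that did not pass the filter on low counts.

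**Figure D1:**
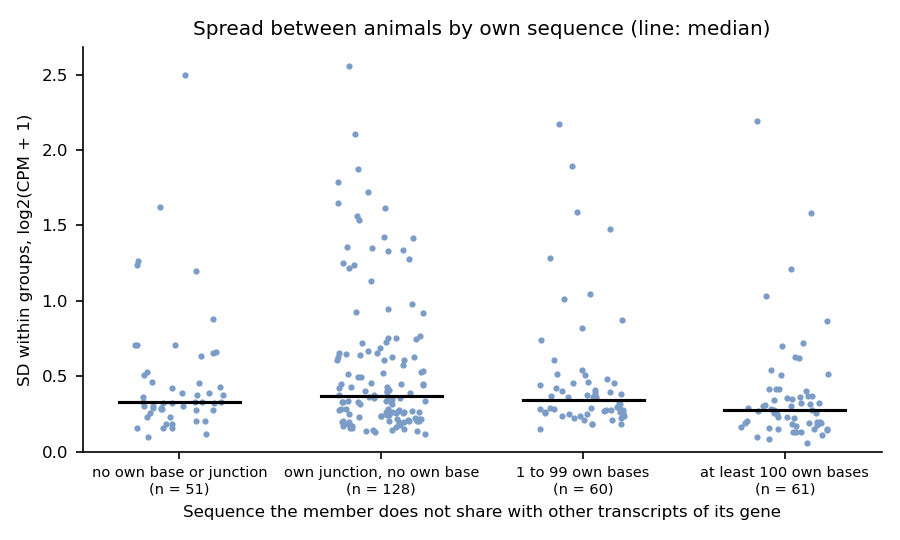
Each point is 1 of the 300 members, grouped by how much sequence it shares with no other transcript of its gene (x axis), and the y axis gives the SD within groups of log2(CPM + 1) over 6 ctrl and 6 cold animals. Black lines are medians, which run from 0.28 for members with at least 100 own bases to 0.37 for members with an own junction only.

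Many members were no minor part of their gene's output as quantified. The part of a gene's TPM that fell to its member had a median of 27.6% in ctrl and 27.1% in cold, and 63 members held over 50% in ctrl while 18 held under 5%. The 5 members without a protein-coding partner in their gene had a median share of 100% in both groups. Of these, Gm20605-201 and Gm20716-201 held 100% in every animal, so their shares could not change. Ppia-201, from the gene of the prolyl isomerase cyclophilin A, held 96.4% ± 1.95 in ctrl and 97.4% ± 1.66 in cold (SD, n = 6 each). Mmaa-202, from a gene of vitamin B12 handling in mitochondria, held 93.9% ± 1.29 in ctrl and 90.4% ± 1.26 in cold, with ranges apart (92.5% to 95.9% against 88.8% to 92.2%). Its usage was called by limma's diffSplice (adjusted p = 0.032) and by none of the other usage tests run. Pnpla2-201, from the gene of adipose triglyceride lipase, held 65.3% ± 2.38 in ctrl and 65.3% ± 4.10 in cold.

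The most abundant members gave no called change in level. A change was called at a Benjamini-Hochberg adjusted p under 0.05 over all transcripts in edgeR's quasi-likelihood test, and log2 fold changes are given with their SE. Pnpla2-201 stood at 1690, 2005 and 2300 CPM (lowest, median and highest animal) in ctrl and at 1580, 1826 and 2067 CPM in cold, with overlapping groups and a log2 fold change of -0.15 ± 0.09 (adjusted p = 0.418). Atp5f1-203, from the gene of ATP synthase subunit b, had 252 ± 44.8 CPM in ctrl and 271 ± 54.6 in cold. Idh3a-204 (a citric acid cycle dehydrogenase subunit) ran from 49.8 to 545 CPM in ctrl and 169 to 513 in cold. Mdh2-203 (malate dehydrogenase of mitochondria) had medians of 189 and 156 CPM, and Rpsa-206 (a protein of the small ribosomal subunit) had medians of 242 and 184 CPM. In both, cold 4 stood far above its group, at 446 and 427 CPM. Ppia, Rpsa and the ribosomal protein genes have near-identical processed copies in the genome that can take up or give reads, so their values are uncertain.

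Lars2-209, from the gene of the mitochondrial leucyl-tRNA synthetase, was set apart by 1 library. It stood at 17047 CPM in ctrl 2, at 218 to 621 CPM in the other 5 ctrl animals and at 157 to 1514 CPM in cold. The log2 fold change was -2.46 ± 1.21 (adjusted p = 0.277), and over the alternatives it ran from -3.01 to 0.68, never called. Through this transcript the members together took 2.41% of the reads of ctrl 2 but 0.935% without it. They took 1.35% ± 0.523 of reads in ctrl and 1.19% ± 0.102 in cold (SD, n = 6 each), and 1.07% ± 0.0808 and 1.13% ± 0.0662 without Lars2-209. No test was made on these sums, since the members were chosen by level.

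**Figure D2:**
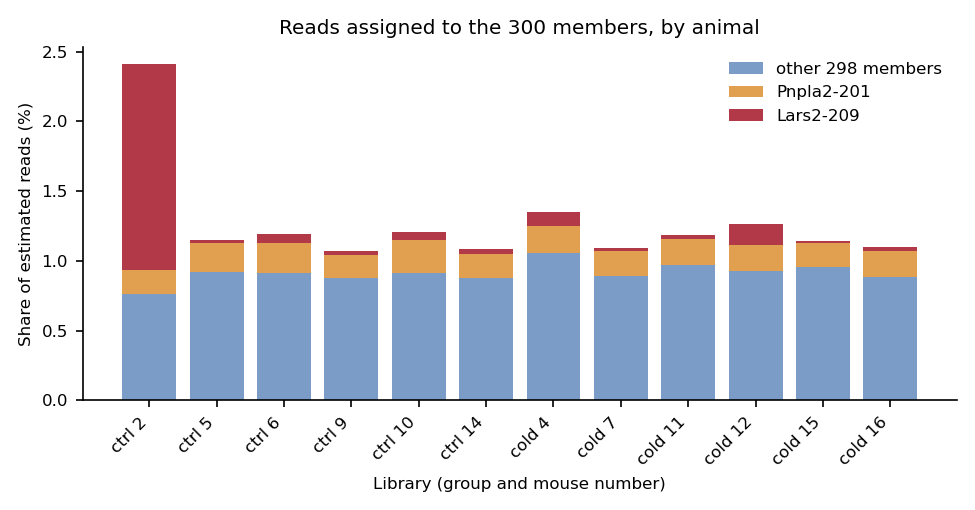
Bars give the share of each library's estimated reads (y axis, %) assigned to the members in the 12 animals, split into Lars2-209, Pnpla2-201 and the rest. Ctrl 2 reaches 2.41% through Lars2-209, and the other libraries lie between 1.07% and 1.35%.

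Cold and ctrl were compared to see which of these RNAs differ in amount, and whether a member goes with its gene or against it. All members but Abcd3-205 were tested, and 16 were called higher and 10 lower in cold, 8.70% in all. The background over all 30345 transcripts tested was 10.3%, with 6.21% higher and 4.06% lower, a pool that includes many transcripts with fewer reads. Of 10170 tested transcripts within the members' range of mean reads 21.2% were called, and of 9090 protein-coding ones in that range 22.0%. The members' share was below both, a difference given without a test. Read numbers were not matched within the range. The median of mean reads was 328 for members, 497 for all transcripts in the range and 521 for the protein-coding ones. Of the 1645 tested transcripts of this annotated type 4.01% were called, of 5140 retained-intron transcripts 3.81% and of 20193 protein-coding transcripts 12.7%. At an unadjusted p under 0.05 there were 65 members (21.7%), against 21.4% of all transcripts. The median log2 fold change was -0.04 over members and -0.02 over all. CPM ranges did not overlap in 11 members with higher and 8 with lower values in cold, against a background of 7.73% for either direction. By own sequence, 11 of 61 members with at least 100 own bases were called, 2 of 60 with fewer, 11 of 127 with an own junction only and 2 of 51 with neither. Without cold 4 there were 19 lower calls, without ctrl 2 and cold 15 together 9 higher calls, and with library totals as scaling 22 higher and 6 lower, which moved the share of higher calls from 61.5% to 78.6% (over all transcripts from 60.5% to 70.7%) and the median of all transcripts from -0.02 to 0.05.

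Members and their genes mostly had the same sign, 232 of those tested, which is a description, as a member's reads are part of its gene's. Counting each host gene once, 66 were called higher, 42 lower and 168 neither, against a gene background of 16.2% higher and 15.4% lower (31.6% in all). Of the 16 members called higher, 14 had a host gene called higher and 2, Tesk1-204 and Mccc1-205, a host gene not called. Of the 10 called lower, 8 had a host gene called lower, Nabp1-209 had one not called and Sod2-202 had one called higher. These counts are a description too, for the same reason. Gm20605-201 held 100% of its gene's TPM in every animal, so its own call and that of its gene rest on the same reads.

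**Figure D3:**
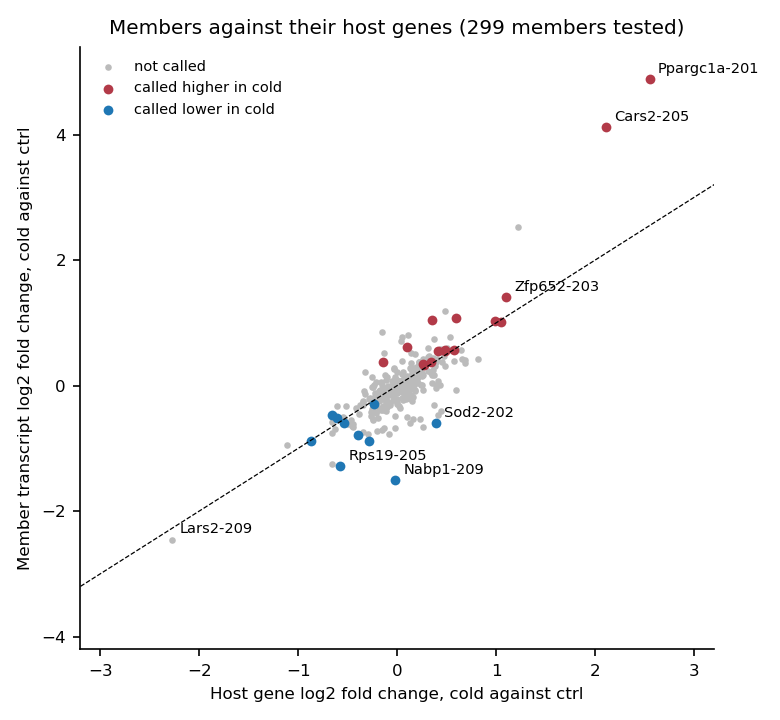
Each point is 1 tested member, with the log2 fold change of its whole gene (x axis) and its own (y axis), cold against ctrl, colored by the call for the member, and the dashed line marks equal change. Cars2-205 and Ppargc1a-201 lie well above the line, Nabp1-209 and Sod2-202 below it, and most members lie near it.

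Cars2-205 had the clearest change of all members. Cars2 codes for the mitochondrial cysteinyl-tRNA synthetase, which also makes cysteine persulfide. The transcript stood at 1.98, 5.50 and 16.3 CPM (lowest, median, highest) in ctrl and at 91.9, 114 and 155 CPM in cold, so that the groups lay far apart. Its log2 fold change was 4.12 ± 0.43 (adjusted p = 0.000113), while the whole gene rose by 2.11 ± 0.12. Its share of the gene's TPM was 4.13% to 19.7% in ctrl and 28.8% to 40.6% in cold (means 9.12% and 36.7%). The coding partner Cars2-201 also rose, from 26.9 to 53.8 CPM (1.00 ± 0.16, adjusted p = 0.00146), while its share went from 43.5% to 18.3%. Another coding transcript, Cars2-210, went the other way in share, from a mean of 22.3% to 35.01%, with overlapping groups. Its level was low, at a mean of 1.82 CPM in ctrl and 11.5 CPM in cold, and was not called (2.64 ± 0.89, adjusted p = 0.0908). The share of Cars2-210 in ctrl thus rests on few reads. Whether the coding output of the gene as a whole lost share was not tested. Cars2-205 has 191 own bases in the extended exon 7 shown above.

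For usage, a change relative to the other transcripts of the gene, edgeR's diffSpliceDGE called Cars2-205 alone among 292 members tested (log2 relative change 1.97 ± 0.28, adjusted p = 3.48e-06), with 0 members lower, against a background of 0.0747% of 24107 transcripts (0.0415% higher and 0.0332% lower). At an unadjusted p under 0.05 it gave 10 members (3.42% against 2.28% of all transcripts). This test is weak here: on simulated counts it found 0% of 1.5-fold, 0% of 2-fold and 10.8% of 74 4-fold changes. It made 16 false calls over all fold sizes, more than its true ones, so its adjusted p did not hold the 0.05 rate there. With 7 false calls, limma on the share of reads found 47.3% of the 4-fold changes. Limma on the share of TPM called 3 members (background 0.183%), Cars2-205 and Zfp652-203 higher and Nabp1-209 lower. On the share of reads it called these and Sod2-202 lower (background 0.411%). TPM shares did not overlap between the groups in 3 members higher and 7 lower in cold, against a background of 1.76% for either direction.

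Nabp1-209 fell while its gene did not. Nabp1 codes for a single-stranded DNA-binding protein of DNA repair. The transcript stood at 17.6, 25.9 and 50.9 CPM in ctrl and at 8.26, 9.92 and 12.4 CPM in cold, a log2 fold change of -1.51 ± 0.22 (adjusted p = 0.000979). The whole gene had 137 CPM in ctrl and 136 in cold (-0.02 ± 0.15, adjusted p = 0.937). Its share of the gene's TPM went from 8.68% ± 3.13 to 2.56% ± 0.546 without overlap (limma on log2 share, adjusted p = 0.0407; diffSpliceDGE, 0.0716). A second member of the gene, Nabp1-204, had shares of 8.24% to 12.5% in ctrl and 3.53% to 7.66% in cold, and its level was not called (-0.67 ± 0.25, adjusted p = 0.137).

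Zfp652-203 rose more than its partner. Zfp652 codes for a zinc finger protein that represses transcription. The member stood at 42.03, 51.3 and 73.8 CPM in ctrl and at 108, 149 and 180 CPM in cold (1.41 ± 0.18, adjusted p = 0.000362), with no overlap. The coding transcript Zfp652-202 had 16.5 CPM in ctrl and 14.0 in cold (-0.24 ± 0.19, adjusted p = 0.573). The member's share went from 71.4% ± 5.43 to 87.7% ± 2.55 (limma on TPM share, adjusted p = 0.0341; diffSpliceDGE did not call it). It has 5011 own bases. The whole gene rose by 1.10 ± 0.13 on the log2 scale, from 76.1 to 163 CPM.

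In Tesk1 the exon-skipped member rose and the coding form fell. Tesk1 codes for a kinase of the actin regulator cofilin. Tesk1-204 stood at 28.2, 38.3 and 45.6 CPM in ctrl and 50.4, 55.9 and 66.3 CPM in cold (0.61 ± 0.11, adjusted p = 0.00378). Tesk1-201 fell from 51.5 to 39.9 CPM (-0.37 ± 0.09, adjusted p = 0.0233), and the whole gene had 89.6 and 96.2 CPM (0.10 ± 0.07, adjusted p = 0.329). The member's share ran from 43.9% to 62.4% in ctrl and 68.9% to 75.4% in cold, apart, but limma on TPM share gave an adjusted p of 0.069. Its usage was not called by diffSpliceDGE with all animals, and of 19 alternatives for usage 1 called it.

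Sod2-202 fell in a gene that rose. Sod2 codes for the manganese superoxide dismutase of mitochondria. Sod2-202 stood at 9.81, 10.5 and 12.7 CPM in ctrl and 6.59, 7.18 and 7.47 CPM in cold (-0.60 ± 0.10, adjusted p = 0.00185), while Sod2-201 rose from 366 to 628 CPM (0.78 ± 0.07, adjusted p = 3.82e-05) and the gene by 0.39 ± 0.07. The member is a trace of its gene, 0.332% of TPM in ctrl and 0.193% in cold, with ranges apart. Rps19-205, with the added exon in a gene of the small ribosomal subunit, stood at 13.6, 15.5 and 19.9 CPM in ctrl and 4.88, 5.37 and 10.7 CPM in cold (-1.29 ± 0.22, adjusted p = 0.00218), and the gene fell by 0.57 on the log2 scale. Its share went from 8.74% ± 0.897 to 5.25% ± 1.02 without overlap, not called by diffSpliceDGE or by limma on shares.

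**Figure D4:**
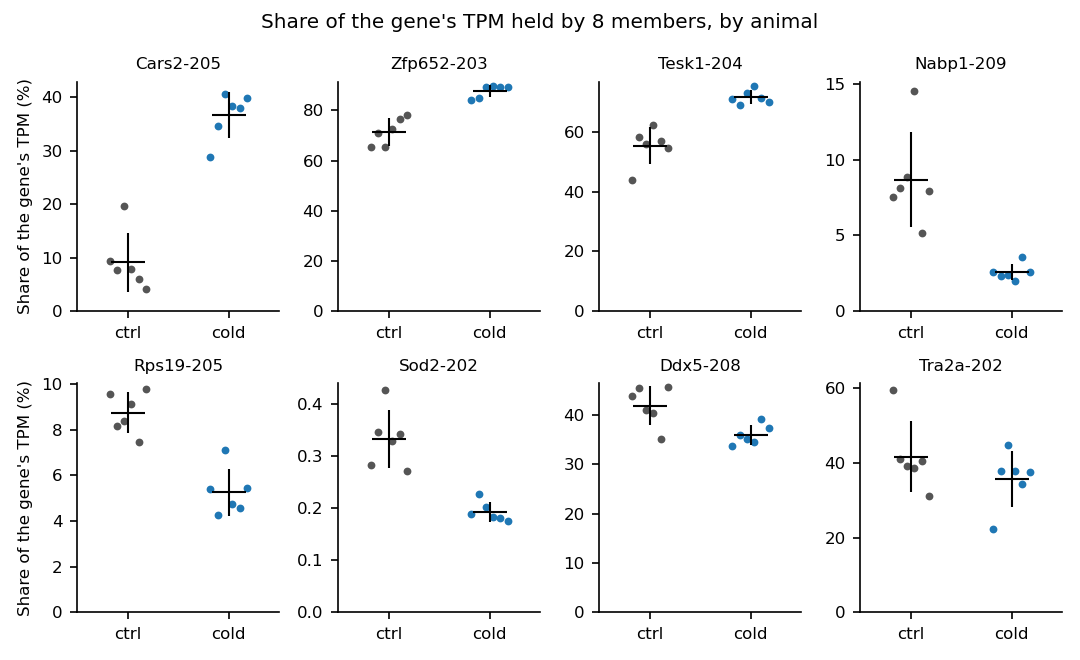
Each panel shows a member's share of its gene's TPM (y axis, %, own scale from 0) in 6 ctrl and 6 cold animals, with black lines for the mean ± SD. The groups lie apart in Cars2-205, Zfp652-203, Tesk1-204, Nabp1-209, Rps19-205 and Sod2-202 and overlap in Ddx5-208 and Tra2a-202.

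Further members changed in level with groups apart but kept shares of TPM that overlapped. Prdx6-208, from an antioxidant peroxiredoxin gene, rose from 78.4 ± 17.3 to 161 ± 42.2 CPM (1.03 ± 0.19), as its gene did (0.99 ± 0.10), with 40.1% and 40.7% of the gene's TPM. Rgl3-207, from a gene of a Ral exchange factor, rose by 1.07 ± 0.27 on the log2 scale, and Zranb2-206, from a splicing factor gene, by 1.04 ± 0.24. Rgl3-207 lost its call without cold 15, ctrl 2, ctrl 6 or ctrl 9 (highest adjusted p over the alternatives 0.122). Acbd4-202, from an acyl-CoA-binding protein gene, fell from 46.8 ± 8.90 to 25.3 ± 4.59 CPM (-0.88 ± 0.15), as its gene did (-0.87 ± 0.07). Chpt1-207, from the choline phosphotransferase gene of phosphatidylcholine synthesis, fell from 228 ± 24.4 to 133 ± 27.1 CPM (-0.78 ± 0.13) and its gene by 0.40 on the log2 scale. Its share of the gene's reads ran from 21.2% to 25.6% in ctrl and 12.6% to 20.3% in cold, apart, but was not called (limma, adjusted p = 0.262). Luc7l2-204, from a gene of a U1 snRNP-associated splicing factor, fell by 0.59 on the log2 scale and its gene by 0.53. Its call was lost without cold 12, 15 or 16 or ctrl 5, 9, 10 or 14 (highest adjusted p over the alternatives 0.105). Without ctrl 2 and cold 15 together Zranb2-206 lost its call as well (adjusted p = 0.0862).

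The other called members, named after their values were seen, were led by Ppargc1a-201, from the gene of the coactivator PGC-1α of thermogenic transcription. The stop in its exon 7, shown above, is the one of the short form NT-PGC-1α, which is known as a translated protein. It stood at 0, 0.950 and 4.15 CPM in ctrl and 3.41, 49.0 and 63.2 CPM in cold, and cold 4, the lowest cold animal, lay within the ctrl range. Its log2 fold change was 4.89 ± 0.99 (adjusted p = 0.00744; 0.359 with limma-voom) and that of the gene 2.55 ± 0.16, and its usage was not called (adjusted p = 0.524). Higher by 0.33 to 1.01 on the log2 scale were Odc1-205 (polyamine synthesis), Mrpl35-202 and Mrpl3-204 (mitochondrial ribosome), Piezo1-204 (mechanosensitive channel), Il4ra-205 (interleukin-4 receptor), Vps13d-203 (lipid transfer between organelles), Mccc1-205 (leucine breakdown), Gm20605-201 and Tardbp-228. Lower were Mlxipl-206 from the ChREBP gene of lipogenic transcription (-0.46 ± 0.11), Nrg4-207 from the gene of the adipose-secreted factor neuregulin 4 (-0.51 ± 0.11), Anapc5-202 of the anaphase-promoting complex (-0.88 ± 0.24) and Sf1-201 of branch-point recognition (-0.30 ± 0.07). Mccc1-205 was higher (0.38 ± 0.10) with its gene not called (-0.14 ± 0.07). Leaving out 1 animal lost the call of Mccc1-205 (cold 4, 7, 11 or 12 or ctrl 2, 5, 6 or 10) and of Mrpl3-204 (cold 4, 7, 12, 15 or 16 or ctrl 2, 5, 9, 10 or 14). It also lost that of Anapc5-202 (cold 4, 7, 11, 12 or 16 or ctrl 2, 5, 6 or 10) and of Mlxipl-206 (cold 12). Of 22 alternatives these members lost the call in 10, 12, 12 and 2, with highest adjusted p of 0.097, 0.125, 0.0903 and 0.0888. Sf1-201 lost its call with library totals and with no filter (adjusted p up to 0.130), Nrg4-207 with library totals (0.0634), and Odc1-205 (0.0611) and Piezo1-204 (0.0608) without ctrl 2 and cold 15 together.

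**Figure D5:**
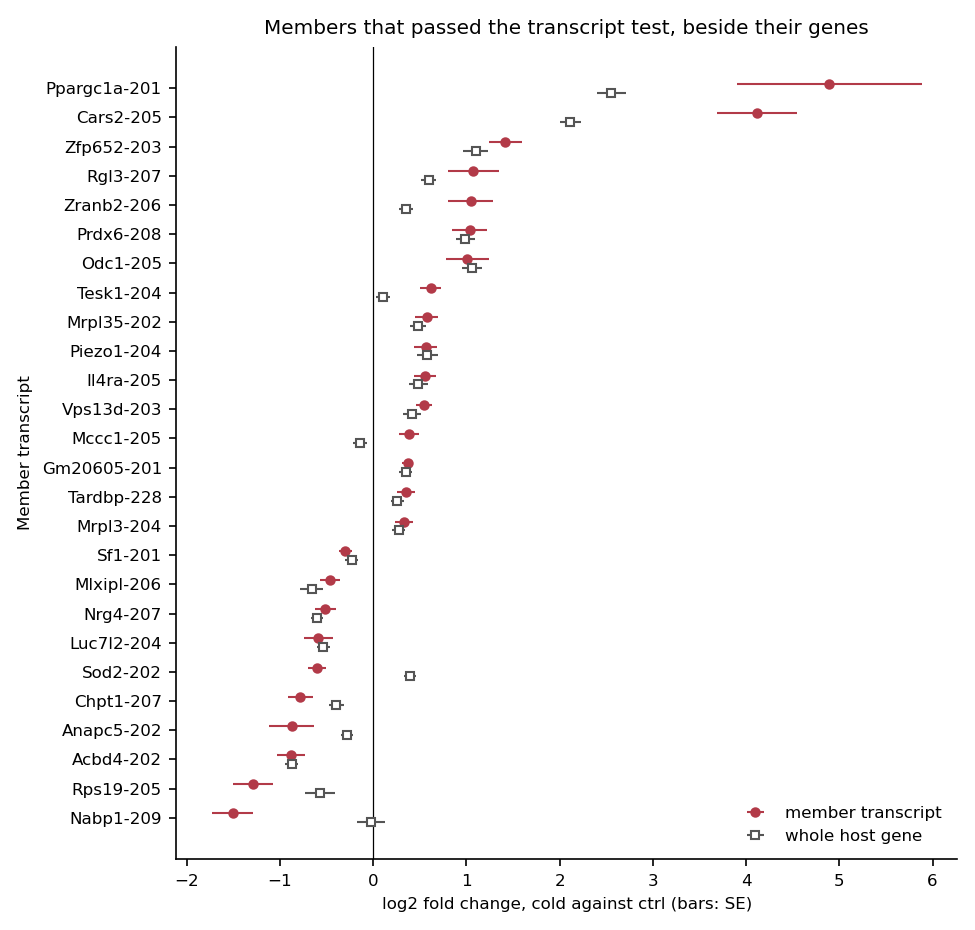
The 26 members called in cold against ctrl are shown with their log2 fold change (x axis; circles, bars are SE) beside that of the whole host gene (squares). Ppargc1a-201 and Cars2-205 reach 4.89 and 4.12, above their genes at 2.55 and 2.11, and Sod2-202 is below 0 with its gene above 0.

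Members in the listed splicing genes, where poison exons and kept introns are best known, were few. Their counts are read beside the 10.3% called among all transcripts and the 21.2% among those in the members' range of mean reads. Among 9 members in 6 hnRNP genes, which code for nuclear RNA-binding proteins, 1 was higher (Tardbp-228, from the TDP-43 gene, 0.35 ± 0.09, adjusted p = 0.0315) and 0 lower, with a median log2 fold change of -0.08. Tardbp-228 lost that call in 12 of 22 alternatives, among them without cold 11, 15 or 16 and without ctrl 2, 5, 6, 10 or 14. Hnrnpu-206 held 58.7% of its gene's TPM in ctrl and 60.3% in cold, and Hnrnpa1-204 13.5% and 11.0%. Among 10 members in 8 genes of spliceosome factors and their kinases, 1 was lower (Luc7l2-204) and 0 higher, with a median of -0.27. The poison-exon form Tra2a-202, the only member in an SR protein gene, had 12.2 ± 2.71 CPM in ctrl and 9.76 ± 1.27 in cold (-0.32 ± 0.15, adjusted p = 0.236). Ddx5-208, the intron-keeping form of an RNA helicase gene, had 236 ± 26.3 and 207 ± 20.7 CPM (-0.19 ± 0.09, adjusted p = 0.251), while its partner Ddx5-201 rose by 0.38 ± 0.06 (adjusted p = 0.00229). The share of Ddx5-208 was 41.9% ± 3.96 in ctrl and 35.98% ± 1.98 in cold, overlapping and not called. Its share of the gene's reads ran from 46.4% to 55.2% in ctrl and 39.9% to 46.1% in cold, apart, but was not called either (limma, adjusted p = 0.109). Prpf4b-208 (a pre-mRNA splicing kinase) and Rbm25-208 (a splicing regulator) were not called (0.05 ± 0.19 and -0.34 ± 0.27).

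Ribosomal, mitochondrial and thermogenic host genes held few members each. Their counts are read beside the same 10.3% among all transcripts and 21.2% among those in the members' range of mean reads. Among 7 members in 4 cytosolic ribosomal protein genes 1 was lower (Rps19-205), and Rpl13a-216 and Rpl14-205 were not called (0.11 ± 0.26 and -0.39 ± 0.37). Cold 4 stood above the other cold animals in both of these last members, at 151 and 80.2 CPM. Without cold 4, Rpl14-205 (-0.93, adjusted p = 0.00626), Rpsa-206 (-0.48, adjusted p = 0.0345) and Ndufs4-202 (-0.39, adjusted p = 0.0084) were called lower. Among 10 members in 9 respiratory chain genes, Ndufs4-202 and Ndufa10-207 of complex I included, 0 were called in either direction with all animals in edgeR, with a median of -0.21. Among 8 members in mitochondrial ribosomal protein genes 2 were higher, Mrpl35-202 (0.57 ± 0.13) and Mrpl3-204 (0.33 ± 0.09), the latter lost in 12 of 22 alternatives. Of 4 members in thermogenic and lipid genes, Ppargc1a-201 was higher, and Pnpla2-201, Pnpla2-204 and Lpl-203 (lipoprotein lipase) were not called. Lpl-203 ran from 5.28 to 79.2 CPM in ctrl and 5.58 to 596 CPM in cold (2.54 ± 1.09, adjusted p = 0.20), while Lpl as a whole rose by 1.22 ± 0.17.

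The genes of the decay pathway itself were read from whole-gene counts, and none had a member among the 300. Of 58 genes in 4 lists, 12 were called higher and 4 lower, against the gene background of 31.6%. Among 18 decay factors 5 were higher and 3 lower. Upf1, the central helicase, had 92.7 ± 5.79 CPM in ctrl and 92.7 ± 7.85 in cold (0.00 ± 0.07). Smg5, which brings decapping and deadenylation to the target, stood at 67.9, 83.8 and 90.0 CPM in ctrl and 97.2, 111 and 119 CPM in cold (0.42 ± 0.08, adjusted p = 0.00069). Nbas rose by 0.50 ± 0.10 and Upf2 by 0.34 ± 0.07, Upf2 with groups apart. Upf3a, a weaker relative of the bridging factor UPF3B, fell by 0.41 on the log2 scale (adjusted p = 0.0189) with overlapping groups, and the helicase gene Mov10 by 0.51. Upf3b was not called (0.03 ± 0.13).

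Of 14 exon junction complex and cap-binding genes, 2 were higher and 0 lower. Ncbp1, the large nuclear cap-binding subunit, went from 36.1 to 44.3 CPM in ctrl to 52.1 to 60.1 CPM in cold (0.43 ± 0.07, adjusted p = 0.000201), and Sap18 rose by 0.64 ± 0.11. Of 18 general RNA decay genes, the exosome subunit gene Exosc9 (0.38 ± 0.12) and the deadenylase gene Pan2 (0.26 ± 0.08) were higher and Pan3 lower (-0.33 ± 0.10). Of 8 genes whose RNAs are known in other cells as targets of this decay, 3 were higher and 0 lower. These were the stress transcription factor genes Atf3 (2.53 ± 0.533 to 12.0 ± 2.84 CPM, 2.25 ± 0.18) and Atf4 (0.27 ± 0.10, adjusted p = 0.0466) and the uridine phosphorylase gene Upp1 (1.83 ± 0.26). Gas5, a noncoding RNA of that list, was not called (-0.24 ± 0.10, adjusted p = 0.0912), nor were Ddit3, Gadd45a, Gadd45b and Tbl2. Without cold 4 the lower calls in the 4 lists numbered 7, without ctrl 6 they numbered 2, and with library totals or without ctrl 2 and cold 15 they numbered 1.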

How the data were processed

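PolyA RNA of 12 animals, 6 ctrl and 6 cold, was read in strand-specific 50 nt pairs, per the labels' protocols. Salmon, cutadapt, bcl2fastq and the build GRCm38 are listed in the submitters' processing notes, with the transcript annotation not given in the sources used. Each deposited file gives, per the file headers, an estimated count (expected count of reads, not normalized), a TPM and an effective length for each of 140658 transcripts. Of these 140137 matched GENCODE M21 by identifier without version, and the 521 unmatched ones held 0.0866% to 0.152% of reads.

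The members and gene lists were chosen with earlier results of these data known. Estimated counts were rounded and filtered (filterByExpr, minimum count 10). With TMM factors, edgeR's robust quasi-likelihood test compared cold with ctrl, two-sided, per transcript and per gene (sums of transcripts). Adjusted p-values (Benjamini-Hochberg, all features) under 0.05 were called. CPM use the TMM library size. Usage was tested with diffSpliceDGE, with limma on log2(share + 0.01) beside it. Effective lengths differ between libraries, so TPM were used only as shares within a gene and, as an alternative, of the library. The p-values measure the spread between mice, whose mouse numbers differ. The common biological coefficient of variation was 59.8% for transcripts and 20.6% for genes. Intervals on single counts were not computed, and depth enters through the model.

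Members were named by these rules: the 8 with most reads; up to 8 rises and 8 falls called in usage with TPM shares apart; the 6 largest rises and falls called in level with CPM ranges apart and a mean log2 CPM of at least 1; up to 3 per host list by reads; and those beside the threshold. Of decay genes, up to 2 risers and 2 fallers per list were named by the rule, and the others, like other called members and Mmaa-202 and Nabp1-204, after their values were seen. A member that the rules name is not reported here.

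On simulated counts the transcript test found 2.41%, 18.3% and 57.9% of 1.5-fold, 2-fold and 4-fold changes with 1 false call (27699 transcripts tested), and the gene test 47.5%, 79.7% and 90.3% with 4 (13702 genes). Alternatives were RLE factors, library totals, DESeq2, limma-voom, no filter and a stricter filter (minimum count 30), an effective length offset, the muscle marker level as a covariate, other usage tests, and each animal left out. Leaving out ctrl 2 and cold 15 together, Lars2-209, Lars2-209 with Pnpla2-201, and the reads of Gm42418 and Lars2 was added after seeing the data. R 4.3.3, edgeR 4.0.16, limma 3.58.1, DESeq2 1.42.0, Python 3.11.15, NumPy 2.4.6, pandas 2.3.3 and matplotlib 3.10.9 were used.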

Additional observations from a re-analysis of the deposited data

Results flagged for a closer look

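An animal was singled out where its gap to the nearest animal of its group, divided by the group's range, passed Dixon's critical value for 6 animals, 0.625. Of 72 groups of values examined 18 passed, where chance gives about 1 in 20, and the groups share animals and are not independent.

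Cold 4, the most deeply sequenced library at 31.4 M reads, stood apart in 9 members. It was above the other cold animals in Ppia-201 (664 CPM), Rpsa-206 (427 CPM), Mdh2-203 (446 CPM), Ndufs4-202 (118 CPM), Rpl13a-216 (151 CPM), Ndufa10-207 (193 CPM), Rpl14-205 (80.2 CPM) and Pnpla2-204 (58.2 CPM), and below them in Tra2a-202 (7.36 CPM). Ctrl 2 stood apart in Lars2-209 (17047 CPM), in Tra2a-202 (17.6 CPM) and in the members' summed share of reads (2.41%). Ctrl 6 was high in Cars2-205 (16.3 CPM) and Pnpla2-204 (58.6 CPM), and ctrl 9 in Nabp1-209 (50.9 CPM) and Zmym5-205 (12.3 CPM). Ctrl 14 was high in Idh3a-204 (545 CPM) and cold 15 in Rgl3-207 (18.4 CPM).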

How the results depend on the processing

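Of the 26 members called in level, 13 kept the call and 26 the direction under every alternative run. Cars2-205 was called in 22 of 22 alternatives for level and 19 of 19 for usage, and Nabp1-209 in 22 of 22 and 8 of 19. Of 22 named members not called, 8 changed sign under some alternative. Members lower in cold numbered 16 with DESeq2, 6 with library totals and, leaving out single animals, 7 to 19 (19 without cold 4), and members higher 12 to 17, or 9 without ctrl 2 and cold 15. Members with lower usage numbered 6 with limma's diffSplice, 1 with limma on TPM share, 2 on read share, 1 with a mean share of at least 0.05, 1 with the stricter filter and 0 to 2 leaving out single animals; higher usage 3, 2 and 2 with the first 3 of these. Host genes lower numbered 23 with library totals. Decay genes lower numbered 1 with library totals, 1 without ctrl 2 and cold 15 and 2 to 7 leaving out single animals. Of their own genes' reads the members took 24.97% in ctrl and 19.7% in cold, but ctrl 2 stood at 40.6% and the other 5 ctrl animals at 21.2% to 22.9%, against 17.9% to 21.9% in cold. Of TPM they took 0.947% in ctrl and 1.06% in cold. Of reads, all transcripts of this type took 1.75% and 1.59%, and the members without Lars2-209 and Pnpla2-201 0.876% and 0.948%. The cause of these shifts was not tested. No paired analysis was possible because the mouse numbers differ between the groups. On simulated counts with the depth and spread of these libraries 2-fold changes of transcripts were mostly missed, and the part of depth in this was not tested.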
